A study of Drosophila melanogaster with 30 samples.

Results

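The nuclear RNA of 10 genes that differed from the LexA control in the same direction in at least 2 of the TH1, Top1 and Trl knockdown groups was followed across all 10 groups of a fly photoreceptor study. They are hzg, Dhc98D, CG2767, CG6912, CG14257, asRNA:CR45822, asRNA:CR45835, Cyp4p1, Cyp4p2 and Rgk2, which make 10 of the 17807 gene rows. They were chosen by their log2 fold changes and adjusted p-values in TH1, Top1 and Trl against LexA, so those values are given as a description and no test is read from them. All 10 passed the filter on low counts that left 14888 genes. Of the 14888, 42 were called alike in 2 or more of the 3 groups, 16 higher and 26 lower, and 21 of the 42 were called in all 3.

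The source of the RNA was nuclei of outer photoreceptors, enriched from male flies at day 30 that were kept at 25 C in 12 h of light and 12 h of dark. Every group carried a GFP tag for nuclei (GFPKASH) under Rh1 and the driver Rh1-Gal4, which is active in outer photoreceptors, and differed in the gene targeted by the short hairpin RNA (shRNA) that Gal4 switched on. The targets were TH1, Top1 and Trl, then Spt5, dom, Spt6, Cdk12, Taf1 and cnc, and in the control group LexA, a bacterial gene. Each group had 3 libraries, which the sample titles call biological replicates. The number of flies behind a library was not given in the sources used here.

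TH1 is a subunit of NELF, a complex that holds RNA polymerase II paused shortly after it starts. Trl encodes the GAGA factor, a DNA-binding protein that opens chromatin at many promoters with paused polymerase, and Top1 encodes a topoisomerase that relieves the supercoils that build up as polymerase moves. A gene that shifts alike when these factors are targeted can be read beside the other knockdowns of the series, which target elongation (Spt5, Spt6, Cdk12), initiation (Taf1), chromatin remodelling (dom) and the stress-response factor cnc.

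Gene counts per library were between 4064250 and 8140940 in TH1, Top1 and Trl (median 6474537), between 4522243 and 18024440 in the 6 other knockdowns, and between 5413749 and 7184260 in LexA (median 6174833). Levels are given in CPM, counts scaled to a common library size. Outer photoreceptor RNA led in every library: ninaE, which encodes Rh1, stood between 7818 and 31477 CPM. The summed level of 10 outer photoreceptor markers was 40991 to 114757 CPM in TH1, Top1 and Trl, 23912 to 95677 CPM in the 6 other knockdowns and 80563 to 87457 CPM in LexA. Spt5 replicates 1 and 2 held the lowest of these sums, at 23912 and 24192 CPM, and replicate 3 was at 64319 CPM. Their 8 markers of other neurons summed to 1117 and 947 CPM, and to 324 CPM in replicate 3, against 249 to 342 CPM in LexA. None of the targeted genes was called lower in its own group than in LexA, so the targets do not check the labels: log2 fold changes were -0.35 for TH1 (SE 0.27), -0.21 for Top1 (SE 0.18) and 0.67 for Trl (SE 0.27). Trl was thus not lower in the libraries labelled Trl, and group names are used here as the labels give them.

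A gene was called in a comparison at an adjusted p under 0.05 in edgeR's quasi-likelihood F test over all tested genes. The 10 genes made 29 of 30 possible calls in the same direction against LexA in TH1, Top1 and Trl, which is what the choice of members fixed. They were called 10 times in TH1, 9 in Top1 and 10 in Trl, and the shares of all tested genes called there were 0.202%, 0.43% and 2.55%. Closest to the threshold on the inner side was Rgk2 in TH1, with an adjusted p of 0.0285, and outside it stood Cyp4p3, the next gene of the Cyp4p cluster, with adjusted p of 0.0931 in TH1, 0.0911 in Top1 and 0.0656 in Trl. The median log2 fold change of all tested genes was 0.02 in TH1, -0.01 in Top1 and 0.21 in Trl.

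**Figure D1:**
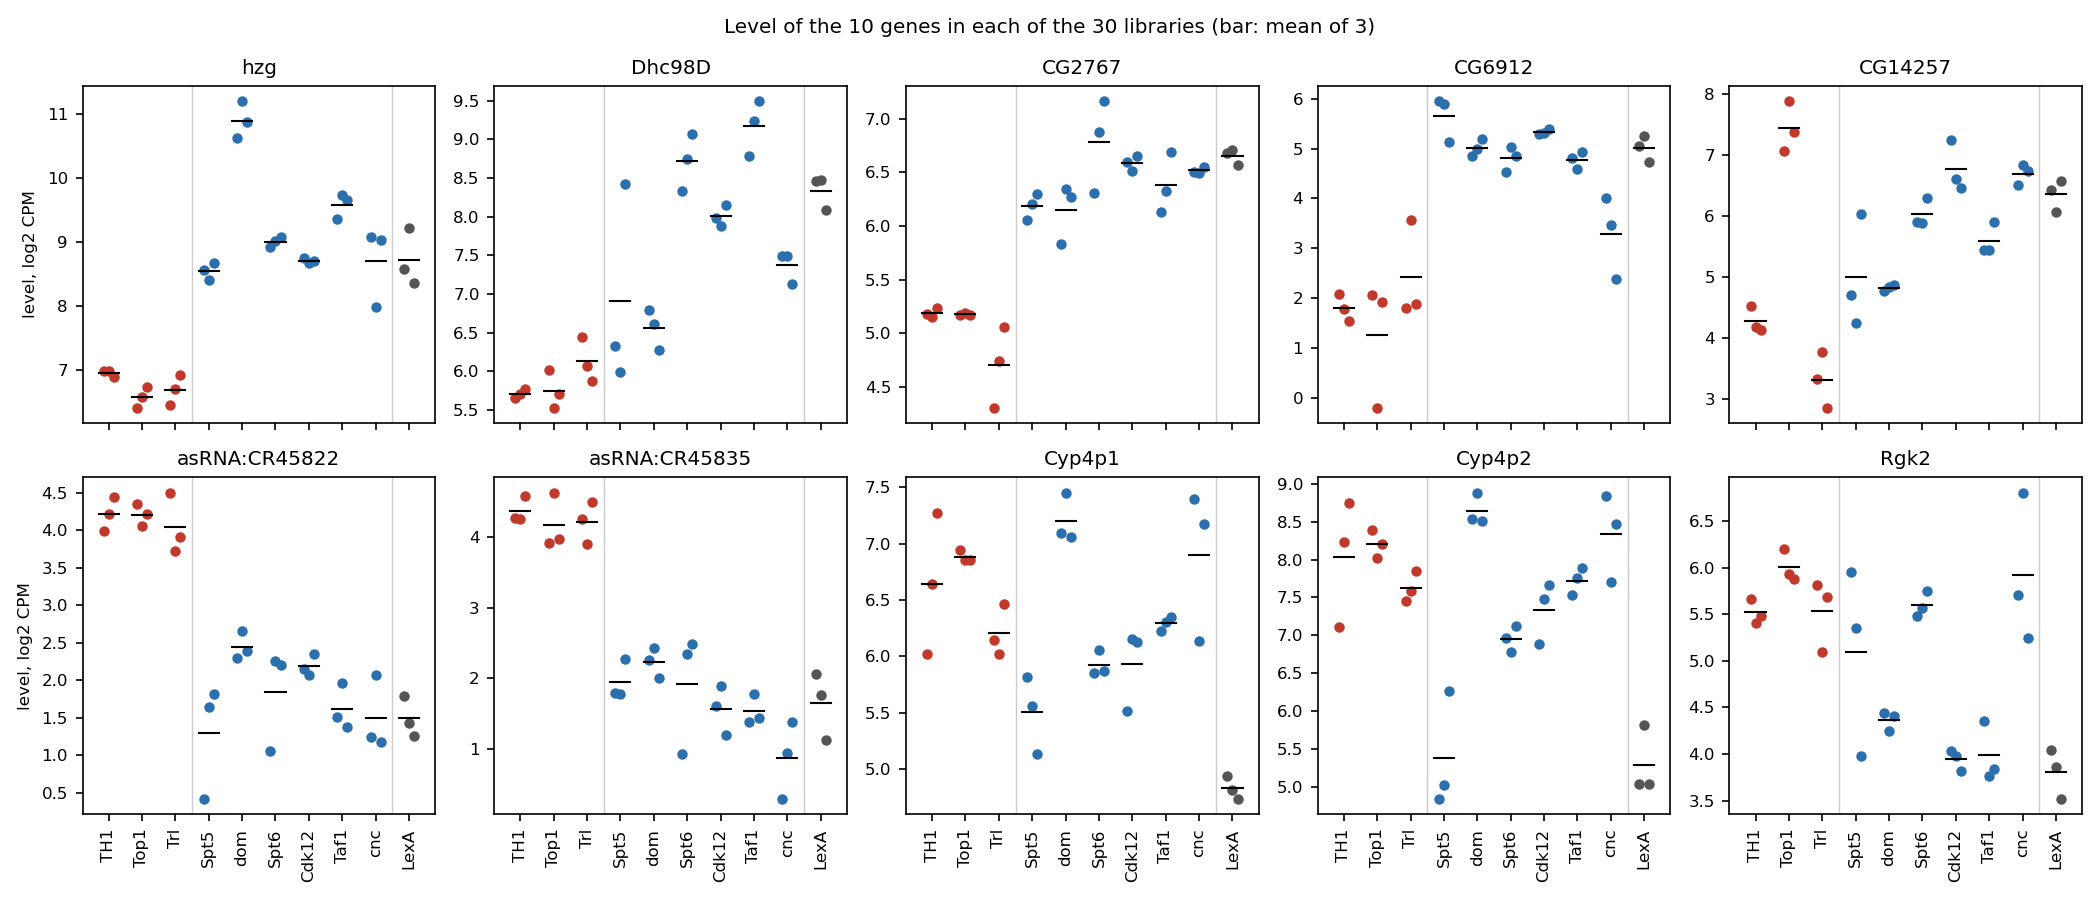
Level of each gene in every library, as log2 CPM on the vertical axis, by group on the horizontal axis (red, TH1, Top1 and Trl; blue, the 6 other knockdowns; grey, LexA; bar, mean of 3). hzg, CG2767 and the antisense genes separate red from all other points, while Cyp4p1 separates LexA from all other points.

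Read over all 10 groups, the genes fell into 4 patterns. hzg, Dhc98D, CG2767 and CG6912 were low in TH1, Top1 and Trl and had a higher mean in each of the 6 other knockdowns. The antisense genes asRNA:CR45822 and asRNA:CR45835 were high in TH1, Top1 and Trl and at most 6.06 CPM in any other library. For Cyp4p1, Cyp4p2 and Rgk2, LexA had the lowest mean of all 10 groups, so that the means of the 6 other knockdowns lay above it too. Libraries still overlapped the LexA range in Spt5 for Cyp4p2 and in Spt5, Cdk12 and Taf1 for Rgk2. CG14257 was low in TH1 and Trl and high in Top1, so the name shared by all 3 groups does not hold for it.

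hzg (FBgn0036556; BDGP6 chromosome 3L, 15992669 to 16004736, minus strand) encodes Herzog, a phosphatase of the SCP type known in fly embryos to become active in an amyloid-like assembly. It stood at 126, 127 and 118 CPM in TH1, 84.9, 95.1 and 106 CPM in Top1 and 87.1, 103 and 122 CPM in Trl, against 381, 597 and 327 CPM in LexA. All 9 libraries of the 3 groups lay below every one of the other 21 libraries. The log2 fold change over LexA was -1.82 in TH1 (SE 0.24), -2.19 in Top1 (SE 0.25) and -2.06 in Trl (SE 0.24). In bulk nuclei, fewer cells that express a gene and less RNA per cell cannot be told apart.

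Over the other groups hzg spanned a wide range, with dom at the top. The dom libraries stood at 1572, 2349 and 1881 CPM and those of Taf1 at 655, 849 and 808 CPM, and neither overlapped any other group. Spt6 at 483, 516 and 541 CPM, cnc at 543, 253 and 525 CPM, Cdk12 at 429, 406 and 418 CPM and Spt5 at 379, 337 and 407 CPM overlapped the LexA range. At the low end, the ranges of TH1, Trl and Top1 overlapped in turn.

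Dhc98D (FBgn0013813; 3R, 28486953 to 28519398, plus strand) encodes a dynein heavy chain, the motor subunit of the dynein complex. It stood at 50.0, 52.1 and 54.6 CPM in TH1, 64.4, 46.0 and 52.1 CPM in Top1 and 87.1, 66.7 and 58.5 CPM in Trl, against 350.4, 354 and 272 CPM in LexA. None of the 9 reached the LexA range, and the log2 fold changes over LexA were -2.64 (SE 0.39), -2.59 (SE 0.39) and -2.20 (SE 0.38). Unlike hzg, Dhc98D was also low in dom, at 111, 97.5 and 77.4 CPM, and in 2 Spt5 libraries, at 80.2 and 63.5 CPM, while Spt5 replicate 3 stood at 341 CPM. Taf1 had the highest mean, with libraries at 441, 605 and 719 CPM that overlapped those of Spt6 at 321, 429 and 537 CPM. Cdk12, at 254, 236 and 285 CPM, overlapped LexA, and cnc, at 180.3, 179 and 139 CPM, lay below it.

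CG2767 (FBgn0037537; 3R, 8005924 to 8008110, minus strand) encodes an aldo-keto reductase, an enzyme family that reduces aldehydes and ketones with NADPH. Its levels were tightly grouped at 35.9, 35.2 and 37.4 CPM in TH1 and 35.9, 36.3 and 35.9 CPM in Top1, with 19.6, 26.5 and 33.0 CPM in Trl, against 103, 104 and 94.7 CPM in LexA. The 9 libraries lay below the other 21, of which the lowest, in dom, was at 56.8 CPM and the highest, in Spt6, at 143 CPM. Log2 fold changes over LexA were -1.47 in TH1 (SE 0.20), -1.48 in Top1 (SE 0.20) and -1.93 in Trl (SE 0.20). The ranges of the 6 other knockdowns overlapped in a chain, in which Spt5 and dom, with means of 72.7 and 71.5 CPM, were lowest.

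CG6912 (FBgn0038290; 3R, 15135138 to 15137004, minus strand) had the largest decrease of the 10 in TH1 and in Top1, while in Trl CG14257 fell further. It was at 4.04, 3.20 and 2.68 CPM in TH1, 3.97, 0.657 and 3.57 CPM in Top1 and 3.26, 11.6 and 3.47 CPM in Trl, against 33.0, 37.7 and 26.2 CPM in LexA. Top1 replicate 2 rests on 4 reads. The log2 fold changes over LexA were -3.29 in TH1 (SE 0.45), -3.56 in Top1 (SE 0.46) and -2.43 in Trl (SE 0.42). Among the other knockdowns cnc, at 16.0, 10.9 and 4.99 CPM, overlapped Trl and lay below LexA, whereas Spt5, at 61.6, 59.1 and 35.0 CPM, had the highest mean.

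The antisense genes lie 5040 bases apart on 3L. asRNA:CR45822 (FBgn0267472; 3L, 7355717 to 7356598, plus strand) stood at 15.7, 18.3 and 21.4 CPM in TH1, 20.2, 16.4 and 18.3 CPM in Top1 and 22.4, 12.9 and 14.8 CPM in Trl, against 3.25, 2.48 and 2.17 CPM in LexA. asRNA:CR45835 (FBgn0267485; 3L, 7361639 to 7363598, minus strand) stood at 19.1, 18.9 and 23.7 CPM in TH1, 14.97, 24.6 and 15.5 CPM in Top1 and 18.9, 14.7 and 22.4 CPM in Trl, against 3.97, 3.19 and 1.97 CPM in LexA. For both genes the 9 libraries lay above all other 21, which reached at most 6.06 CPM for asRNA:CR45822 and 5.42 CPM for asRNA:CR45835, and the ranges of TH1, Top1 and Trl overlapped one another. Log2 fold changes over LexA were 2.80, 2.79 and 2.66 for asRNA:CR45822 and 2.75, 2.58 and 2.61 for asRNA:CR45835 (SE 0.36 to 0.37).

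Each antisense gene overlaps a protein-coding gene on the other strand, and the strand setting of the counting was not stated. It is therefore not known whether reads of the 2 partners of a pair were told apart. Of the 882 exon bases of asRNA:CR45822, 700 are shared with CTCF, which encodes an insulator protein. CTCF was not called in TH1, Top1 or Trl, with log2 fold changes over LexA of -0.21, -0.20 and -0.67. Of the 1960 exon bases of asRNA:CR45835, 1787 are shared with Sec63, which encodes a protein of the translocation channel of the endoplasmic reticulum. Sec63 was higher in TH1 (1.01, SE 0.20, adjusted p 0.016) and in Top1 (1.08, SE 0.20, adjusted p 0.00571) and was at 0.62 in Trl (SE 0.20, adjusted p 0.0734). pst, which lies between the antisense genes, was at 0.85, 1.14 and 0.36 and was not called, and neither were the outer neighbours qm and Sh3beta.

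**Figure D2:**
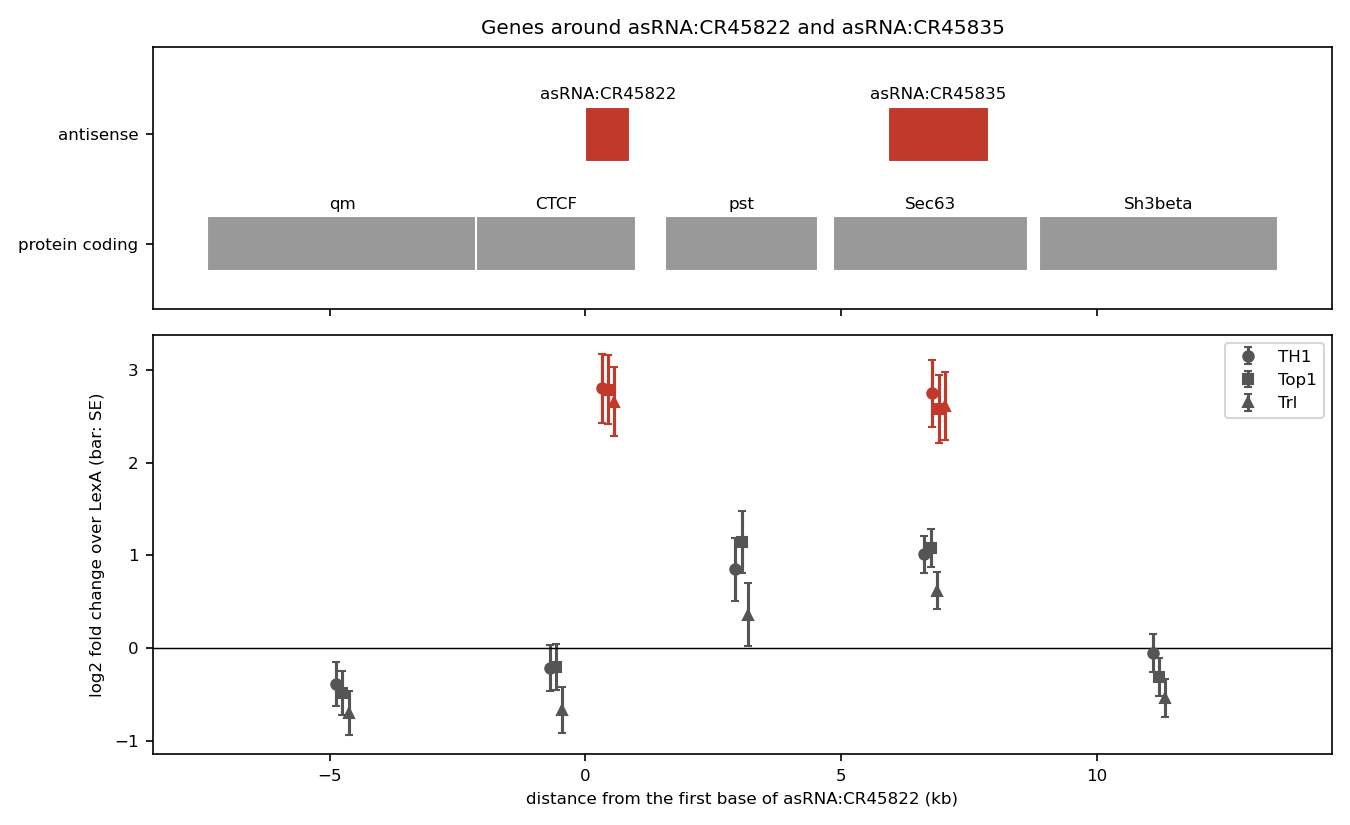
Upper panel, extents of the annotated genes around the antisense pair, by distance from the first base of asRNA:CR45822 in kb; lower panel, log2 fold change over LexA of each gene in TH1, Top1 and Trl (bar, SE). The antisense genes (red) stand at 2.58 to 2.80 in all 3 groups, above Sec63 at 0.62 to 1.08 and CTCF at -0.67 to -0.20.

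Cyp4p1 (FBgn0015037; 2R, 9240041 to 9242139, plus strand) and Cyp4p2 (FBgn0033395; 2R, 9237512 to 9239831, plus strand) encode cytochromes P450, enzymes that oxidise lipids and foreign compounds. They lie 209 bases apart in a cluster with Cyp4p3, and both sit within the extent of hig on the other strand without sharing exon bases with it. Reads that align to several places were not counted to genes, so levels of these related copies are uncertain. Per 100 gene counts, such alignments numbered 59.2 to 94.5 in Spt5 and 72.9 to 82.6 in Cdk12. In the other groups they lay between 12.8 and 33.0, and their part in the results was not tested. Cyp4p1 stood at 64.8, 99.7 and 154 CPM in TH1, 123, 116 and 116 CPM in Top1 and 70.4, 64.6 and 88.2 CPM in Trl, against 30.5, 28.0 and 26.4 CPM in LexA. The 3 LexA libraries lay below every other library of the series, of which the lowest, in Spt5, was at 35.0 CPM.

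The order of the 10 group means of Cyp4p2 was that of Cyp4p1, with dom at the top and LexA at the bottom. It was at 138, 299.8 and 430.04 CPM in TH1, 335, 259.9 and 296 CPM in Top1 and 175, 192 and 229.6 CPM in Trl, against 32.5, 56.0 and 32.5 CPM in LexA. The TH1 libraries of both genes spread more widely than those of Top1 and Trl. dom, at 372, 472 and 363 CPM, and cnc, at 457, 209 and 355 CPM, overlapped the range of TH1. Spt5, at 28.4, 32.4 and 76.3 CPM, was the group that overlapped LexA, while Spt6, Cdk12 and Taf1 lay between 109.9 and 237 CPM.

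In fold terms, Cyp4p2 was above LexA by 2.84 in TH1, 2.88 in Top1 and 2.30 in Trl on the log2 scale (SE 0.36 to 0.37), and Cyp4p1 by 1.91, 2.06 and 1.39 (SE 0.28). The mean of the 6 other knockdowns was itself above LexA by 2.10 for Cyp4p2 (SE 0.32) and 1.49 for Cyp4p1 (SE 0.23). Cyp4p3, the neighbour of Cyp4p1 at 180 bases, was at 1.36 in TH1, 1.28 in Top1 and 1.06 in Trl without a call, and was called higher in dom at 2.98 (SE 0.33, adjusted p 5.16e-07), in cnc at 1.42 (SE 0.32, adjusted p 0.0465) and in Spt5 at 0.96 (SE 0.32, adjusted p 0.0402). hig, the host of the cluster, was lower than LexA in Trl (-1.23, SE 0.29, adjusted p 0.0305) and in Cdk12 (-1.71, SE 0.30, adjusted p 0.0046).

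Rgk2 (FBgn0085419; 2R, 18539585 to 18548969, plus strand) encodes a small GTPase of the RGK family, whose mammalian members inhibit voltage-gated calcium channels. It stood at 50.5, 42.2 and 44.6 CPM in TH1, 73.6, 61.0 and 58.5 CPM in Top1 and 56.1, 33.9 and 51.3 CPM in Trl, against 16.2, 14.3 and 11.2 CPM in LexA. The 9 libraries lay above the LexA range, by 1.71 in TH1 (SE 0.35), 2.20 in Top1 (SE 0.36) and 1.76 in Trl (SE 0.35) on the log2 scale. Spt6, at 44.4, 47.1 and 53.4 CPM, and cnc, at 51.9, 112 and 37.8 CPM, overlapped them. Cdk12 and Taf1, between 13.3 and 20.3 CPM, overlapped LexA, dom lay just above it at 18.8 to 21.5 CPM, and Spt5 spread over 61.7, 40.7 and 15.6 CPM.

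CG14257 (FBgn0039479; 3R, 27075870 to 27082818, plus strand) was at 22.8, 18.1 and 17.3 CPM in TH1 and 9.92, 13.4 and 7.07 CPM in Trl, against 85.8, 66.8 and 94.5 CPM in LexA. Top1, at 134, 235 and 165 CPM, lay above every LexA library. The log2 fold changes over LexA were -2.09 in TH1 (SE 0.33), -3.03 in Trl (SE 0.35) and 1.11 in Top1 (SE 0.31). dom, at 27.0, 28.2 and 28.9 CPM, and Spt5, at 26.0, 18.7 and 65.1 CPM, were below LexA, and Spt5 overlapped TH1. Cdk12, at 152, 96.7 and 87.4 CPM, and cnc, at 90.5, 115 and 107 CPM, were the other groups with a mean above LexA.

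Against LexA, the 6 other knockdowns gave 14 calls in 60 comparisons of a gene and a group, where all tested genes gave 4.59%. By group, the calls were 2 in Spt5, where 16.5% of all tested genes were called, 5 in dom (10.4%), 1 in Spt6 (0.107%), 1 in Cdk12 (0.195%), 2 in Taf1 (0.148%) and 3 in cnc (0.289%). Of the 14, 10 fell to Cyp4p1, Cyp4p2 and Rgk2, all higher, 2 to CG14257, lower in Spt5 and dom, and 1 each in dom to hzg, higher, and Dhc98D, lower. These comparisons share the LexA libraries with those that chose the genes and are given as a description. DESeq2 made 22 such calls.

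**Figure D3:**
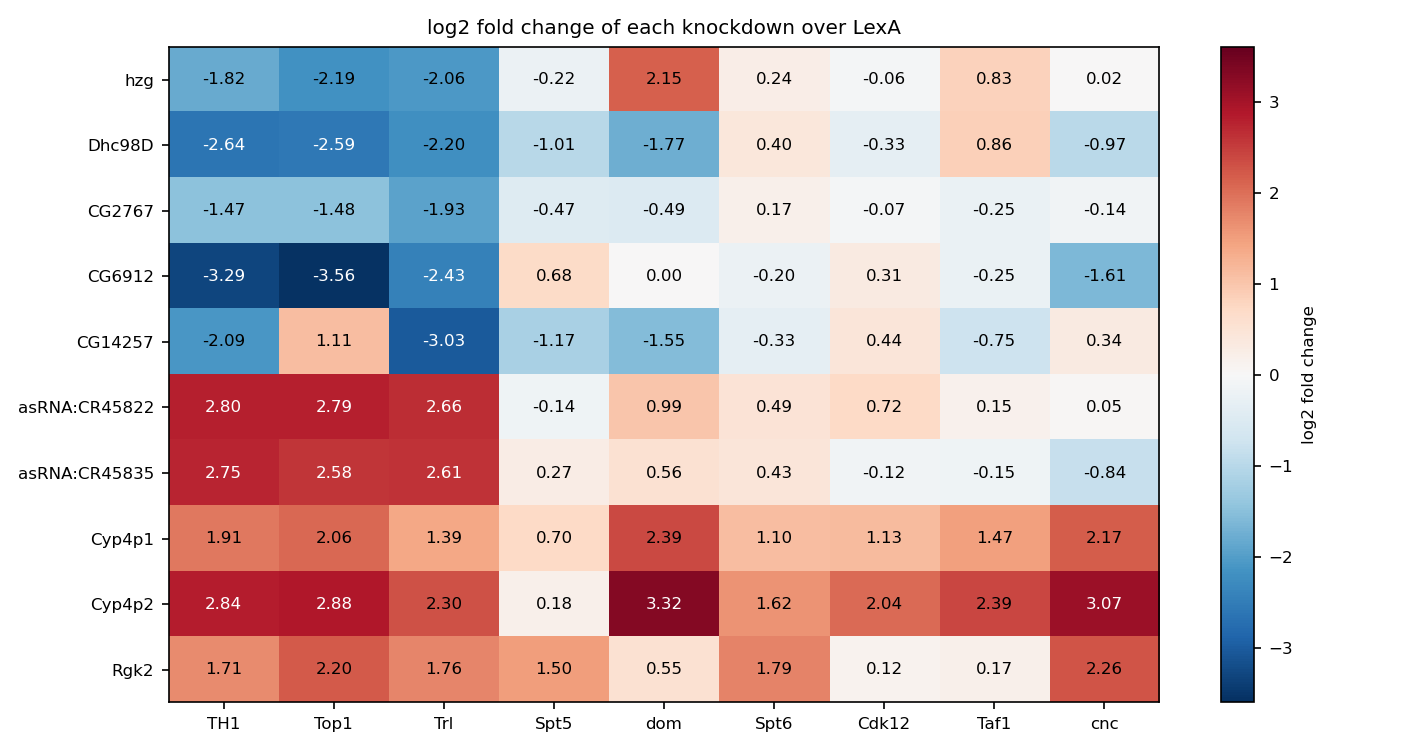
Log2 fold change over LexA of each gene (rows) in each of the 9 knockdowns (columns), printed in each cell and coloured on a scale from blue (lower) to red (higher). The columns share the LexA libraries. Cyp4p1, Cyp4p2 and Rgk2 are above 0 in all 9 columns, whereas hzg runs between -2.19 in Top1 and 2.15 in dom.

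Set per kb of annotated exon, hzg was the most abundant of the 10 in LexA at 121 CPM per kb and CG2767 was next at 76.7 CPM per kb. CG14257, Cyp4p2, CG6912, Dhc98D and Cyp4p1 lay between 16.9 and 31.3 CPM per kb in LexA. asRNA:CR45822, Rgk2 and asRNA:CR45835 were lowest there, at 2.99, 2.84 and 1.55 CPM per kb. The antisense genes share most exon bases with CTCF and Sec63, and the strand setting was not stated. Their countable length, and so their place in this order, is uncertain. In TH1 the order differed: Cyp4p2, at 163 CPM per kb, and Cyp4p1, at 63.3 CPM per kb, stood above hzg at 34.3 CPM per kb.

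The mean of TH1, Top1 and Trl was set against the mean of the 6 other knockdowns, a contrast that leaves out the LexA libraries but still uses the libraries that chose the genes. On the log2 scale the difference was -2.92 for CG6912 (SE 0.24), -2.52 for hzg (SE 0.13), -2.004 for Dhc98D (SE 0.20) and -1.42 for CG2767 (SE 0.11). It was 2.62 for asRNA:CR45835 (SE 0.16) and 2.37 for asRNA:CR45822 (SE 0.16). These 6 genes were more than 1 log2 unit from 0. Rgk2 at 0.82 (SE 0.16), Cyp4p2 at 0.57 (SE 0.17), Cyp4p1 at 0.29 (SE 0.13) and CG14257 at -0.83 (SE 0.17) were closer. For the first 3 of these, the mean of the 6 other knockdowns was itself 1.07 to 2.10 log2 units above LexA. Spt5 and Cdk12 have files of another layout and more reads that align to several places. Without these 2 groups, the difference was 0.09 for Cyp4p2, 0.03 for Cyp4p1 and -2.81 for hzg. For the other 7 genes it moved by less than the spread between replicates.

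**Figure D4:**
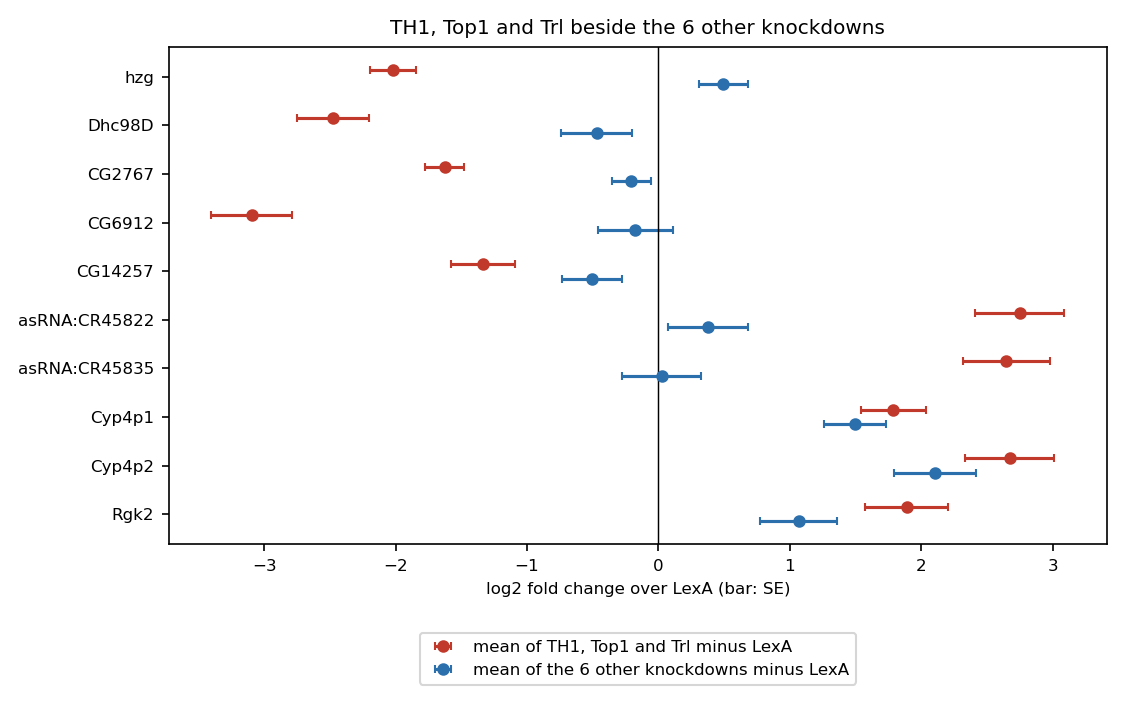
Log2 fold change over LexA of the mean of TH1, Top1 and Trl (red) and of the mean of the 6 other knockdowns (blue) for each gene (bar, SE). Red and blue lie far apart for hzg, Dhc98D, CG2767, CG6912 and both antisense genes, and within 1 log2 unit for Cyp4p1, Cyp4p2, Rgk2 and CG14257.

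Depth, reads outside features and markers of other cells moved with some of these groups, TH1, Top1 and Trl included. Over the 30 libraries, which share groups and depth, Pearson's r between the log2 gene count of a library and log2 CPM was 0.587 for CG2767, 0.525 for hzg, -0.458 for asRNA:CR45835 and -0.431 for asRNA:CR45822. The summed level of 6 markers of cone, pigment and corneal cells was 479.8 to 825 CPM in TH1, Top1 and Trl, 401 to 1073 CPM in the 6 other knockdowns and 864 to 932 CPM in LexA. Fat body and hemocyte markers, 8 in number, summed to 130.3 to 298 CPM in TH1, Top1 and Trl, 165 to 1145 CPM in the 6 other knockdowns and 244 to 377 CPM in LexA. Ciliated sensory neuron markers, 5 in number and of interest for a dynein gene, summed to 54.4 to 91.3 CPM in TH1, Top1 and Trl, 39.2 to 116 CPM in the 6 other knockdowns and 62.9 to 89.2 CPM in LexA. Other neuron markers summed to 368 to 434 CPM in TH1 and 397 to 439.7 CPM in Top1, above the 249 to 342 CPM of LexA, and to 304 to 352 CPM in Trl. Inner photoreceptor markers, 4 in number, were at 263 to 365 CPM in TH1, 341 to 414 CPM in Top1 and 146 to 293 CPM in Trl, against 282 to 326 CPM in LexA, so that Top1 stood above LexA. Muscle markers, 5 in number, were at 1109 to 1504 CPM in TH1, 1272 to 2105 CPM in Top1 and 209 to 1221 CPM in Trl, against 762 to 1290.05 CPM in LexA, and 6 glial markers at 282 to 348 CPM in TH1, 310.3 to 486 CPM in Top1 and 196 to 336 CPM in Trl, against 191 to 402 CPM in LexA. Reads outside features were 101.3% to 171.7% of gene counts in Trl, above the 79.3% to 92.4% of LexA. They were 79.2% to 105.6% in TH1 and 63.0% to 93.7% in Top1. With them as a covariate, the log2 difference of TH1, Top1 and Trl from the 6 other knockdowns was 2.35 for asRNA:CR45822 and 2.73 for asRNA:CR45835. Without it, the values were 2.37 and 2.62. Values with the covariate for Trl against LexA are not given here. No marker of the lists was at 0 in every library, and the part of depth or of other cells in the results was not tested.

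The 6 knockdowns whose libraries did not choose the genes allow a test, each against the mean of the other 5. The 10 genes gave 18 calls in 60 such comparisons, where all tested genes gave 6.01%. The spread was estimated over all 30 libraries, so those that chose the genes still entered it. With only the 6 knockdowns in the fit there were 14 calls. Each knockdown is part of the mean that the others are set against, so the 6 comparisons of a gene are not independent. A group far from the rest can thus add calls of the other sign elsewhere. There were 5 calls in Spt5, where 17.2% of all tested genes were called, 6 in dom (16%), 1 in Cdk12 (0.329%), 1 in Taf1 (1.4%) and 5 in cnc (0.678%). Spt6 (0.443%) had 0 calls by edgeR and 0 by DESeq2, with 5 of the 10 at an unadjusted p under 0.05. The share of all tested genes at that unadjusted p is not given here, so the 5 cannot be set against 0.443%. CG2767 and asRNA:CR45835 were called in none of the 6.

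In dom, hzg rose by 1.99 on the log2 scale (SE 0.16, adjusted p 2.05e-10), with all 3 dom libraries above every other library of the series. Cyp4p2 rose by 1.46 (SE 0.24, adjusted p 6.81e-05) and Cyp4p1 by 1.07 (SE 0.19, adjusted p 0.000169) in dom. Dhc98D and CG14257 fell in dom, with log2 differences of -1.56 (SE 0.32, adjusted p 0.000881) and -1.26 (SE 0.27, adjusted p 0.00123). asRNA:CR45822 was called higher in dom at 0.74 (SE 0.25, adjusted p 0.0445), a call that was lost without the filter on low counts (adjusted p 0.0774), with only the 6 knockdowns in the fit (adjusted p 0.166) and without any of 14 single libraries, with values down to 0.64. The other 5 dom calls held in every alternative run, with Cyp4p2 at 0.95 against Spt6, Taf1 and cnc alone, which share the file layout of dom (adjusted p 0.0112). hzg and Dhc98D, both low in TH1, Top1 and Trl, thus moved in opposite directions in dom. Of the 10 groups, dom had the lowest median sum of cone, pigment and corneal cell markers, at 401 to 506 CPM against 864 to 932 CPM in LexA, and the highest of ciliated sensory neuron markers, at 109 to 116 CPM against 62.9 to 89.2 CPM in LexA. Their part in the dom results was not tested.

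In Spt5, Cyp4p2 lay 2.31 log2 units below the mean of the other 5 (SE 0.32, adjusted p 7.83e-05), a call that held in every alternative. Over LexA, however, Spt5 was at 0.18 for Cyp4p2 (adjusted p 0.852) and 0.70 for Cyp4p1 (adjusted p 0.0793), so neither was below the control. There hzg was at -0.22 (adjusted p 0.66), CG6912 at 0.68 (adjusted p 0.255) and CG14257 at -1.17 (adjusted p 0.0114). Against the other 5, Cyp4p1 at -0.95 (SE 0.22, adjusted p 0.00354), hzg at -0.85 (SE 0.19, adjusted p 0.00273) and CG6912 at 1.03 (SE 0.27, adjusted p 0.00801) were also called. Against Cdk12, the group that shares the file layout of Spt5, these were -0.43 (adjusted p 0.427), -0.16 (adjusted p 0.812) and 0.37 (adjusted p 0.697), in the same order. The hzg call was also lost without Spt5 replicate 1 (-0.85, adjusted p 0.064) or 2 (-0.79, adjusted p 0.061), and that of CG6912 without Spt5 replicate 1 (0.90, adjusted p 0.117) or 2 (0.92, adjusted p 0.101). CG14257 at -0.80 (SE 0.26, adjusted p 0.0294) was at -0.59 without Spt5 replicate 1 (adjusted p 0.309), -0.48 without replicate 2 (adjusted p 0.382) and -1.50 without replicate 3 (adjusted p 2.4e-05), and at -1.61 against Cdk12 (adjusted p 0.00398). Spt5 replicate 3 stood apart from the other Spt5 libraries for Dhc98D, CG14257, Cyp4p2 and Rgk2, as it did for the outer photoreceptor and other neuron markers. Inner photoreceptor markers (1015, 958 and 365 CPM) and fat body and hemocyte markers (1145, 916 and 336 CPM) split the Spt5 libraries alike, and their part in the Spt5 results was not tested.

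In cnc, a transcription factor known for the response to oxidative and foreign compounds, Rgk2 rose by 1.44 (SE 0.23, adjusted p 0.000665), Cyp4p2 by 1.16 (SE 0.24, adjusted p 0.012), CG14257 by 1.01 (SE 0.22, adjusted p 0.0195) and Cyp4p1 by 0.81 (SE 0.19, adjusted p 0.0391), and CG6912 fell by 1.72 (SE 0.33, adjusted p 0.00533). Each of these calls was lost without 1 or more single libraries. Rgk2 was at 0.86 without cnc replicate 2 (adjusted p 0.187), and CG6912 at -1.73 without replicate 2 (adjusted p 0.052) and -1.38 without replicate 3 (adjusted p 0.081). Cyp4p2 was at 0.89 without cnc replicate 1 (adjusted p 0.3), 1.14 without replicate 3 (adjusted p 0.0784) and 0.63 against dom, Spt6 and Taf1, which share its file layout (adjusted p 0.539). CG14257 lost its call without any 1 of the cnc libraries (0.93 to 1.10, adjusted p 0.0538 to 0.178), and Cyp4p1 without any of 19 single libraries of the series (as low as 0.56 without cnc replicate 1, adjusted p 0.536).

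In Taf1, Dhc98D lay 1.59 above the mean of the other 5 (SE 0.25, adjusted p 0.00104). The call held in every alternative, with an adjusted p of up to 0.0486 without single libraries. Over LexA, Dhc98D in Taf1 was at 0.86 (adjusted p 0.785) and CG14257 in Cdk12 at 0.44 (adjusted p 0.861). Against the other 5, CG14257 was called higher in Cdk12 at 1.14 (SE 0.22, adjusted p 0.0138). It lost that call without any 1 of the Cdk12 libraries, at 0.86 without replicate 1 (adjusted p 0.41), 1.23 without replicate 2 (adjusted p 0.0779) and 1.28 without replicate 3 (adjusted p 0.0624).

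**Figure D5:**
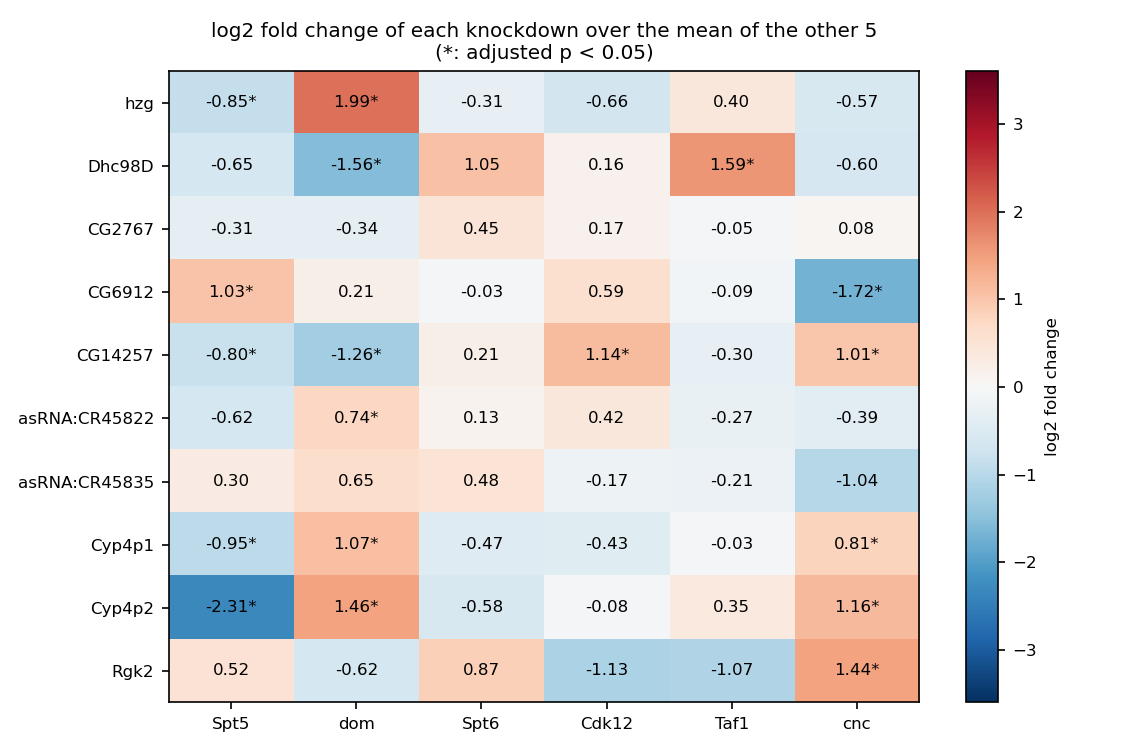
Log2 fold change of each gene (rows) in each of the 6 knockdowns (columns) over the mean of the other 5, with * at an adjusted p under 0.05. dom and Spt5 hold 11 of the 18 marked cells, and the rows of CG2767 and asRNA:CR45835 hold none.

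Genes next to the members were read to see whether the shift stops at the member. Of 23 overlapping or nearest genes, 22 were tested, and 3 were called in TH1, 3 in Top1 and 2 in Trl. The shares of all tested genes called there were 0.202%, 0.43% and 2.55%. CG11052, whose end lies 138 bases before the start of CG2767 on the same strand, was lower than LexA in TH1 (-1.91, SE 0.36, adjusted p 0.00954), Top1 (-2.46, SE 0.38, adjusted p 0.000476) and Trl (-2.83, SE 0.38, adjusted p 7.51e-05). asRNA:CR45600, which shares 20 exon bases with CG6912, was lower in TH1 (-2.25, SE 0.39, adjusted p 0.00323) and Top1 (-2.23, SE 0.39, adjusted p 0.00282) and at -1.17 in Trl (adjusted p 0.0704). The neighbours of hzg (Hip14 at 204 bases and mRpS31 at 456 bases), of Dhc98D (CG1894 and CG31051), of CG14257 (spz and Cpr97Ea) and of Rgk2 (lncRNA:CR46271 and GEFmeso) were not called in TH1, Top1 or Trl, nor was CG2698, which overlaps CG2767.

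For each gene the 3 genes most like it were those with the highest Pearson's r of log2 CPM over the 30 libraries, which share groups and depth, so r is a description. CG14257 was most like CG14258, 10324 bases away on 3R (r = 0.956), which was at -1.98 in TH1, 1.15 in Top1 and -3.58 in Trl against LexA, the same mixed pattern. CG2767 was most like CG11052 (r = 0.917) and Nct, a subunit of the gamma-secretase complex (r = 0.914), followed by CG8245 (r = 0.789). CG11052 (r = 0.864) and Cbl, a ubiquitin ligase (r = 0.862), also headed the list of Dhc98D, before Acn (r = 0.807). For CG6912, asRNA:CR45600 came first (r = 0.908), with CG8245 (r = 0.759) and CG2767 (r = 0.749) next.

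The antisense genes were most like each other (r = 0.919) and then like Sf3b3, a splicing factor subunit (r = 0.769 for asRNA:CR45822 and 0.806 for asRNA:CR45835). Sf3b3 itself was at 1.21 in TH1, 1.54 in Top1 and 1.30 in Trl against LexA. Next came CG34337 for asRNA:CR45822 (r = 0.735) and Sec63 for asRNA:CR45835 (r = 0.80). Cyp4p1 and Cyp4p2 were most like each other (r = 0.895), with Cyp4p3 (r = 0.781) and r-l (r = 0.747) next for Cyp4p1 and phr (r = 0.716) and CG10638 (r = 0.681) next for Cyp4p2. hzg was most like ru (r = 0.846), mbf1 (r = 0.82) and Ac78C (r = 0.816). Rgk2 was most like igl (r = 0.696), CG9377 (r = 0.687) and spel1 (r = 0.675).

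Families related to the members were counted without them. Of the Cyp4 family, 0 of 20 Cyp4 genes were called in TH1 and in Top1 by edgeR (3 and 5 at an unadjusted p under 0.05, 1 and 2 by DESeq2), and in Trl Cyp4d8 was higher (1.59, SE 0.36, adjusted p 0.0228) and Cyp4d2 lower (-1.09, SE 0.25, adjusted p 0.0235). The Cyp4 medians were 0.17 in TH1, 0.18 in Top1 and 0.34 in Trl, beside 0.02, -0.01 and 0.21 over all genes. Over the 83 tested cytochrome P450 genes, which include these, 0 were called in TH1 and in Top1 by edgeR (6 and 12 at an unadjusted p under 0.05, 1 and 3 by DESeq2) and in Trl 2 were higher and 2 lower, with Cyp313a4 at 2.73 (SE 0.68) and Cyp6w1 at -1.17 (SE 0.31). Of 9 other dynein heavy chains, Dhc93AB was called higher in Trl by edgeR (1.47, SE 0.35, adjusted p 0.0309). In Trl, 7 of the 9 were at an unadjusted p under 0.05 and 2 were called by DESeq2. The median of the 9 was 1.47 in Trl, 0.14 in TH1 and 0.07 in Top1. Over all genes, these medians were 0.21, 0.02 and -0.01. In TH1 and in Top1, 0 of the 9 were called by edgeR (2 and 1 at an unadjusted p under 0.05, 0 and 0 by DESeq2). Of 424 other antisense genes tested, 2 were called in TH1, 2 in Top1 and 6 in Trl (0.202%, 0.43% and 2.55% of all tested genes). Among them was asRNA:CR44975, higher in all 3 (6.49, 6.22 and 5.87 on the log2 scale). DESeq2 called 2 in TH1, 2 in Top1 and 20 in Trl. The median of the 424 was 0.12 in TH1, -0.03 in Top1 and 0.88 in Trl, where that of all genes was 0.21.

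Of 6 other RGK and calcium channel genes, Rgk1 was higher in Top1 (1.02, SE 0.19, adjusted p 0.00695). Of 6 other phosphatases of the SCP and HAD type, Fcp1, which acts on the tail of RNA polymerase II, was lower in Trl (-0.77, SE 0.20, adjusted p 0.0406). None of 7 other aldo-keto reductases was called in TH1, Top1 or Trl by edgeR, with 1 in each at an unadjusted p under 0.05 and 0, 0 and 1 by DESeq2. Over the tested genes of these families and the neighbouring genes, 23 calls were made against LexA in 1665 comparisons with TH1, Top1 and Trl (1.38%, beside 1.06% of all tested genes) and 113 in 3330 comparisons with the 6 other knockdowns (3.39%, beside 4.59%). Pooled in this way, both shares lie near those of all genes. DESeq2 made 210 calls where edgeR made these 136. The 22 tested neighbouring genes alone gave 3 calls in TH1, 3 in Top1 and 2 in Trl. Of all tested genes, 0.202%, 0.43% and 2.55% were called there, so the pooled share does not describe the neighbours.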

How the data were processed

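The deposited data were raw counts, 1 file of whole reads per gene for each library of nuclear RNA. Per the submitters' processing notes, the authors used Trimmomatic 0.39, HISAT2 and HTSeq with the build BDGP6. The sources used here state neither the strand setting, the counted feature type nor the annotation release. Groups and replicates came from the sample titles, because several genotype labels count upward over replicates. Summary rows, 51.8% to 74.5% of a library's reads, and transgene rows were left out of library sizes and tests. Of 17807 gene rows, 17709 had a symbol, and positions are those of the reference annotation for BDGP6.

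Testing of the deposited counts used edgeR 4.0.16 in R 4.3.3: a filter by expression (minimum count 10, minimum total 15), TMM scaling, 1 fit of all 30 libraries with a mean per group, and quasi-likelihood F tests, two-sided. Benjamini-Hochberg adjustment ran over all 14888 tested genes in each comparison, and every adjusted p printed comes from this test unless DESeq2 is named. To obtain the standard error (SE), the size of the log2 fold change was divided by the root of F. CPM were computed with TMM library sizes, and their log2 values with a prior count of 2. The procedure was tested on simulated data. Depth gives a precision against counting error alone.

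The members, gene lists and tests were chosen with earlier results of these data known. Named genes were the members, overlapping and nearest genes, called members of related families (up to 4 a list), the 3 genes most like each member, the shRNA targets and ninaE. The symbols Ca-beta, CG40064 and nan matched no row. Alternatives were size factors of DESeq2, DESeq2 1.42.0 itself, no filter, a covariate for reads outside features, a replicate block, fewer groups in the fit, comparisons within a file layout and leaving out each library.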

Additional observations from a re-analysis of the deposited data

Results flagged for a closer look

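Of the 60 differences tested, 18 between knockdowns passed the test of the difference itself, each knockdown against the mean of the other 5 that did not choose the genes. All tested genes gave 6.01% in these comparisons, with 17.2% in Spt5, 16% in dom and 0.678% in cnc. With only the 6 knockdowns in the fit, 14 differences passed. The comparisons of a gene share their libraries, so the 18 are not separate results. In dom, hzg stood at 1.99 on the log2 scale, Cyp4p2 at 1.46, Cyp4p1 at 1.07, asRNA:CR45822 at 0.74, CG14257 at -1.26 and Dhc98D at -1.56. In Spt5, CG6912 stood at 1.03, CG14257 at -0.80, hzg at -0.85, Cyp4p1 at -0.95 and Cyp4p2 at -2.31. In cnc, Rgk2 stood at 1.44, Cyp4p2 at 1.16, CG14257 at 1.01, Cyp4p1 at 0.81 and CG6912 at -1.72. Dhc98D stood at 1.59 in Taf1 and CG14257 at 1.14 in Cdk12. The standard errors, adjusted p-values and the libraries that decide a call stand with each gene in the results above.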

How the results depend on the processing

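The 29 calls of the members against LexA in TH1, Top1 and Trl were 29 or 30 under the 6 alternatives and 26 to 30 without single libraries. The 30th, in DESeq2, is CG14257 in Top1, higher. The 14 calls against LexA in the 6 other knockdowns became 22 with DESeq2 and 14 to 19 under the other alternatives, and 11 to 19 without single libraries. The 18 calls against the other 5 knockdowns were 14 to 23 and, without single libraries, 14 to 26. In each setting, 6 members differed by more than 1 log2 unit between TH1, Top1 and Trl and the 6 other knockdowns. The 136 calls of families and neighbours became 210 with DESeq2, 58 without LexA replicate 2, 69 without Spt5 replicate 1 and 84 without Spt5 replicate 2, and ran between 58 and 199 without single libraries. The cause of these shifts was not tested. No value reversed.

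Size factors of DESeq2 shifted the median of all genes by 0.17 log2 units in Trl against LexA, and by less than 0.1 in the other comparisons. With the replicate number as a block, the counts were 29, 16, 19, 6 and 145 in the order above, and no call of a named member against the other 5 was lost. Some same-numbered libraries deviated together and others did not: r was over 0.1 in 21, 18 and 20 of 45 pairs of groups for replicates 1, 2 and 3, within -0.62 to 0.673. Reads not aligned per 100 gene counts were 96.4, 87.6 and 54.1 in replicate 1 of Taf1, Spt6 and dom, against 13.3 to 32.02 in their other replicates. As neither the labels nor every pair link the numbers, they were not taken as pairs. Cyp4p1 in cnc was at 0.69 with the covariate (adjusted p 0.0507), and at 0.52 within its file layout (adjusted p 0.477). CG14257, fitted with the 6 knockdowns alone, was at -0.83 in Spt5 (adjusted p 0.08), 1.18 in Cdk12 (adjusted p 0.0927) and 1.05 in cnc (adjusted p 0.099). Shallow libraries limit the antisense genes and CG6912 most, which rest on few reads.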

Other observations

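Of the 42 genes called alike in 2 or more of TH1, Top1 and Trl, 8 lie on 2L, 13 on 2R, 9 on 3L, 12 on 3R and 0 on X, which holds 14.9% of the tested genes. Of the 10 members, 3 lie on 2R, 3 on 3L and 4 on 3R. Among the 32 other genes, CG12911, Csgalnact, Mbs and Ist1 were also low in the 6 other knockdowns, at -4.90, -2.55, -1.12 and -1.17 on the log2 scale against LexA, while CG8089, CR43669, CG43244 and Sf3b3 stood at -0.10, -0.15, 0.80 and -0.08 there and at 1.21 to 6.13 in TH1, Top1 and Trl. These 8 were chosen after their values were seen.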
